A study of Homo sapiens with 4 samples.

Results

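A set of dual-specificity phosphatases of the MAP kinases was followed in Jurkat cells, a human cell line of T-cell acute lymphoblastic leukaemia, with and without the BET degrader GNE987. The 10 genes were DUSP1, DUSP2, DUSP4, DUSP5, DUSP6, DUSP7, DUSP8, DUSP10, DUSP14 and DUSP16, chosen by name from the 26733 genes of the expression table, and all 10 passed the filter on low counts that left 15910 tested genes. GNE987 is a bifunctional molecule: one end binds BET bromodomain proteins and the other the VHL ubiquitin ligase, so that the bound protein is marked for degradation. One group of 2 libraries came from cells treated for 24 h, with a dose labelled as 25 nmol and no volume given. The other group of 2 libraries came from cells labelled as not treated, and no vehicle is named for them. All 4 libraries were made from polyadenylated RNA of the same line, and the labels do not say that replicates were separate cultures, and the p-values given here cover only the variation among these samples, which may be technical.

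MAP kinases are switched on when both a threonine and a tyrosine of their activation loop carry phosphate, and the phosphatases described here remove both groups. Several of them are themselves early targets of the kinases they switch off, which makes them feedback brakes of ERK, JNK and p38 signalling. DUSP1, DUSP2, DUSP4 and DUSP5 act in the nucleus and are known as inducible genes, DUSP6 and DUSP7 act in the cytoplasm and prefer ERK, and DUSP8, DUSP10 and DUSP16 prefer JNK and p38. DUSP14 is a small atypical member that lacks the kinase-binding domain of the others and is known as a negative regulator of T-cell receptor signalling.

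Total counts were 16041022 to 17024157 in the treated libraries and 18441248 to 18938465 in the untreated ones. The untreated libraries differed more from each other, their counts over all genes giving a chi-square divided by its degrees of freedom of 24.0 against 3.6 for the treated pair, and untreated replicate 2 lay nearer to the treated libraries for most of the members. All 10 T-cell markers were detected, and their summed level was 1541 and 1688 CPM (library-scaled counts, with TMM factors) in the treated libraries and 2632 and 2794 CPM in the untreated ones. The median marker was at a log2 fold change of -2.46, and 7 fell and 1 rose. LCK, the proximal kinase of the T-cell receptor, had 60.1 and 62.1 CPM with GNE987 against 951 and 783 CPM without, while CD3E, which made up the largest part of the treated sum, had 717 and 823 against 507 and 639 CPM and did not pass (adjusted p = 0.0688, edgeR). Of 10 myeloid markers 9 had a row and 3 of 6 tested ones rose, with a summed level of 156 and 159 CPM with GNE987 against 14.4 and 43.2 CPM without. The 3 were LYZ, CD14 and CSF1R, named after their values were seen. MPO and ITGAM had the highest means and did not pass (adjusted p = 0.0702 and 0.0531, edgeR), with 72.6 and 77.3 CPM and 43.1 and 40.4 CPM in the treated libraries against 0.0898 and 15.5 CPM and 0.135 and 9.23 CPM in the untreated ones, and CD33 had no read in either treated library. Summed B-cell markers were at 101 to 112 CPM with GNE987 and 73.3 to 79.1 CPM without, erythroid and megakaryocyte markers at 16.3 to 17.5 and 0.943 to 2.72 CPM, and fibroblast and epithelial markers at 9.19 to 9.49 and 2.72 to 2.74 CPM. Only 2 B-cell markers were tested, of which 1 rose and 1 fell (median log2 fold change -0.85), so their sum does not stand for each gene. Of the erythroid and megakaryocyte markers 2 of 2 tested rose, and of the fibroblast and epithelial ones 1 of 2. The part of these transcripts in the results below was not tested. Scaling by library size alone lowered the median log2 fold change of all tested genes from -0.03 to -0.41, and with it 4103 genes were higher and 7164 lower, where TMM gave 5467 and 5920.

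The members lie on separate chromosomes apart from DUSP6 and DUSP16 (GRCh38, GENCODE release 29). DUSP1 lies on chromosome 5 from 172768090 to 172771195, DUSP2 on chromosome 2 from 96143166 to 96145440, and DUSP7 on chromosome 3 from 52048919 to 52056550, all on the minus strand. DUSP5 lies on chromosome 10 from 110497838 to 110511544 and DUSP14 on chromosome 17 from 37489831 to 37513501, both on the plus strand. DUSP8 lies on chromosome 11 from 1554044 to 1571920, DUSP10 on chromosome 1 from 221701424 to 221742176, and DUSP6 and DUSP16 on chromosome 12 from 89347232 to 89353271 and from 12474210 to 12562383, all on the minus strand. DUSP2 and DUSP1 are the shortest of them, at 2275 and 3106 bases from end to end, and DUSP16 is the longest at 88174 bases. The median span was 15656 bases against 24332 bases over all tested genes. The longest coding transcript has 2 exons in DUSP14, 3 in DUSP6 and DUSP7, 7 in DUSP8 and DUSP16, and 4 in the rest, and its length is 198 codons in DUSP14 against 314 to 665 codons in the others.

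Promoter sequence from RefSeq (GRCh38.p14, 250 bases before to 50 bases after the start site) was matched for 8 of the 10 members, and DUSP4 and DUSP5 were not matched. These windows were rich in G and C, at 73.3% in DUSP1, 75.0% in DUSP2, 78.0% in DUSP7, 78.3% in DUSP8, 81.0% in DUSP14 and 73.3% in DUSP16. DUSP6 had 58.3% and DUSP10 55.0%, near the median of 58.7% over 35116 promoters of the same length. The full cyclic AMP response element, TGACGTCA, stood in the windows of DUSP1 and DUSP8 and in 1.85% of all promoters. It is a palindrome, so both strands read alike, and it is known as a site of the CREB and ATF factors that kinases downstream of ERK and p38 phosphorylate. DUSP1 held 1 copy, which began 125 bases before the start, and DUSP8 held 2, which began 118 and 74 bases before it. These distances are from the RefSeq start, which can differ from the GENCODE gene end given above. For DUSP8 and DUSP16 the whole window lay outside the GENCODE gene span, and for DUSP6 the whole window lay inside it. DUSP1 also had TATAAA, beginning 30 bases before the start, a motif found on either strand in 11.5% of all promoters. The E-box CACGTG, the palindrome that MYC and related factors bind, was present in DUSP1 and DUSP2 and in 7.26% of all promoters. The GC box GGGCGG, a site of SP and KLF factors, was present on either strand in 7 of the 8 windows and in 44.95% of all promoters, and DUSP14 had 5 copies. No window held the AP-1 motif TGANTCA (7.71% of all promoters), the CArG box (1.29%) or the ETS motif CCGGAAGT (4.14%), all searched on both strands. A match describes the letters in the window only. The stretches that hold these motifs are printed 5′ to 3′ in the direction of transcription, and they lie at chr5:172771216-172771335 for DUSP1, chr11:1572332-1572396 for DUSP8, chr2:96145526-96145565 for DUSP2, all on the minus strand, and chr17:37489751-37489860 for DUSP14 on the plus strand. Capitals mark the response element, then the E-box, then TATAAA in DUSP1, the 2 response elements in DUSP8, the E-box in DUSP2 and the GC boxes in DUSP14.
DUSP1: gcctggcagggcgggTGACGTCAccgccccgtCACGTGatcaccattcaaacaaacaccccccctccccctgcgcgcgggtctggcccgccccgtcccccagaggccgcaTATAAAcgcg
DUSP8: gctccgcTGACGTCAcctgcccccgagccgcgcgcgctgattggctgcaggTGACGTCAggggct
DUSP2: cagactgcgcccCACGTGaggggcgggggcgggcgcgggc
DUSP14: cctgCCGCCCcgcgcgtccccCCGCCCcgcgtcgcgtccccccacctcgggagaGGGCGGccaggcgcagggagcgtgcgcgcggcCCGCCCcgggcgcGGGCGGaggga

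The comparison addressed how the transcripts of these phosphatases responded to the BET degrader. Transcripts of 8 members rose with GNE987, none fell, and DUSP4 and DUSP6 did not pass the threshold of an adjusted p of 0.05 (edgeR quasi-likelihood test, Benjamini-Hochberg over all tested genes). The 10 members are not the whole family. DUSP9, of the same subgroup as DUSP6 and DUSP7, was listed apart from them and fell (log2 fold change -3.37). A rise or fall here is relative to the other transcripts of a library, and change in RNA per cell was not tested. Over all 15910 genes 71.6% were called, 34.4% higher and 37.2% lower. The rise was at least 2-fold in 7 members, against 24.6% of all tested genes that were called higher by as much. The median log2 fold change of the 10 members was 1.34, beside -0.03 for all tested genes. It was 1.78 without untreated replicate 2, where 9 members were called higher (41.1% of all tested genes), and 0.98 with library size alone, where 7 were called (25.8%). Without untreated replicate 1 it was 1.09, with 8 members called higher (36.6%). Without GNE987 replicate 1 or without GNE987 replicate 2 only 5 were called higher, DUSP1, DUSP5, DUSP7, DUSP8 and DUSP10, where only the untreated pair gives the spread and 13.0% and 13.5% of all tested genes were called higher.

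**Figure D1:**
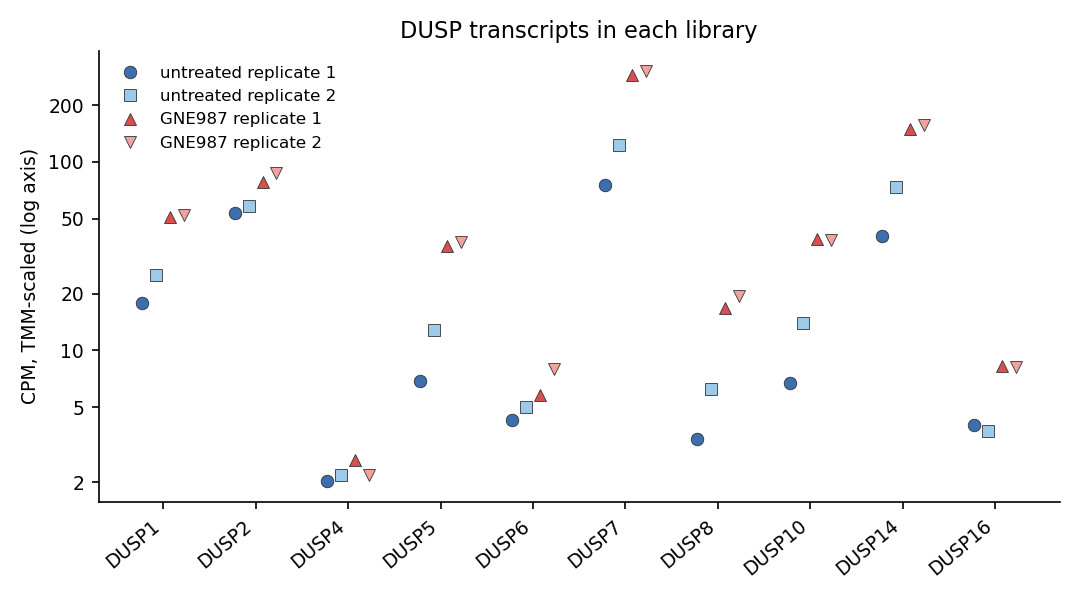
Level of each phosphatase transcript in the 4 libraries, in CPM scaled with TMM factors on a log axis; each point is 1 library. Both treated libraries lie above both untreated ones for all 10 genes, as for 44.6% of all tested genes, by the narrowest margin in DUSP4 (2.626 and 2.174 against 2.020 and 2.173 CPM).

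Among the inducible nuclear phosphatases, DUSP1, which acts on p38, JNK and ERK, had 51.3 and 52.4 CPM with GNE987 against 17.9 CPM (untreated replicate 1) and 25.2 CPM (untreated replicate 2). The treated libraries were nearly equal and lay above both untreated ones, and the log2 fold change was 1.27 ± 0.19 (SE), with an adjusted p of 0.00304. DUSP1 had 782 and 723 counts in the treated and 399 and 511 in the untreated libraries, and AC022217.3, an antisense gene over its whole length, had 2 to 13, which a kit without strand marks cannot separate.

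DUSP5, a nuclear phosphatase that is specific for ERK, had the largest fold change of the 4 inducible genes. It had 35.8 and 37.8 CPM with GNE987 against 6.91 CPM (untreated replicate 1) and 12.8 CPM (untreated replicate 2). The groups did not overlap, and the log2 fold change was 1.90 ± 0.30 with an adjusted p of 0.00346, a 3.74-fold rise with a 95% interval of 2.23 to 6.25. The log2 fold change was 1.52 without untreated replicate 1 and 2.46 without untreated replicate 2.

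DUSP2, which is known for its expression in activated lymphocytes, was at 78.5 and 86.9 CPM with GNE987 and at 53.5 and 58.4 CPM without. Its untreated libraries were close to each other, and the rise was the smallest of the 8, 1.48-fold with an interval of 1.20 to 1.82 (log2 fold change 0.56 ± 0.12, adjusted p = 0.00942). Its raw counts were almost equal in all 4 libraries, at 1196 and 1199 with GNE987 and 1192 and 1183 without. With library size alone the log2 fold change was 0.19 with an adjusted p of 0.229 (edgeR), the highest over its 13 settings. The lowest adjusted p with all 4 libraries was 0.000167 (DESeq2 Wald test). DUSP2 also did not pass without GNE987 replicate 1 or without GNE987 replicate 2 (adjusted p = 0.0649 and 0.107).

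DUSP4, the fourth nuclear phosphatase, was the lowest member. It had 40 and 30 counts with GNE987 and 45 and 44 without, or 2.63 and 2.17 CPM against 2.02 and 2.17 CPM. The lower treated and the higher untreated library were equal within counting error. The fold change of 1.15 had a 95% interval of 0.655 to 2.00, which spans both a fall and a rise (adjusted p = 0.6, edgeR). Its log2 fold change was 0.20 with TMM and -0.17 with library size alone.

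Of the cytoplasmic ERK phosphatases, DUSP7 had the highest CPM of all members. It had 288 and 303 CPM with GNE987 against 75.3 CPM (untreated replicate 1) and 124 CPM (untreated replicate 2). Both treated libraries lay above the untreated ones, and the log2 fold change was 1.57 ± 0.25 with an adjusted p of 0.00376.

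DUSP6, the classical reporter of ERK output, was at 5.78 and 7.97 CPM with GNE987 and at 4.27 and 4.99 CPM without. In TMM-scaled CPM the groups did not overlap, which was also so for 44.6% of all tested genes with the treated pair higher and 46.6% with it lower. The log2 fold change was 0.57 ± 0.27 with an adjusted p of 0.108, a fold change of 1.48 with an interval of 0.924 to 2.38. DUSP6 passed with upper-quartile scaling (log2 fold change 0.77, adjusted p = 0.0478, edgeR). It also passed without untreated replicate 2 (0.74), where only the treated pair gives the spread. With all 4 libraries adjusted p ranged from 0.0478 to 0.558 (edgeR). The highest came with library size alone, where the log2 fold change was 0.20.

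The phosphatases that prefer JNK and p38 all rose. DUSP10 had 38.9 and 38.6 CPM with GNE987 against 6.69 CPM (untreated replicate 1) and 13.9 CPM (untreated replicate 2). Its untreated libraries differed by more than 2-fold and still lay well below the treated ones. The log2 fold change was 1.91 ± 0.34 with an adjusted p of 0.00516, and it was 1.48 without untreated replicate 1 and 2.59 without untreated replicate 2.

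DUSP8 had 16.7 and 19.4 CPM with GNE987 against 3.37 CPM (untreated replicate 1) and 6.27 CPM (untreated replicate 2). The log2 fold change was 1.91 ± 0.32 with an adjusted p of 0.00439. DUSP8P5, a processed pseudogene of DUSP8, had 56 and 78 counts with GNE987 and 34 and 34 without, beside 255 and 268 against 75 and 127 for DUSP8. Whether reads were shared between the copies was not tested, so the value of each stays uncertain. KRTAP5-AS1, which overlaps DUSP8 on the other strand over 568 bases, had 2 to 16 counts.

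DUSP16, a JNK phosphatase, was at 8.27 and 8.19 CPM with GNE987 and at 3.996 and 3.75 CPM without. Each pair was nearly equal, and untreated replicate 2 was not displaced toward the treated libraries. The log2 fold change was 1.09 ± 0.22 with an adjusted p of 0.00807, and it was 1.13 without untreated replicate 1 and 1.09 without untreated replicate 2. It did not pass without GNE987 replicate 1 or without GNE987 replicate 2. With all 4 libraries adjusted p ranged from 0.00167 (DESeq2 Wald test) to 0.0476 (edgeR, library size alone).

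DUSP14, the small atypical phosphatase, had 149 and 157 CPM with GNE987 against 40.6 CPM (untreated replicate 1) and 73.9 CPM (untreated replicate 2). The groups did not overlap and the log2 fold change was 1.42 ± 0.29 with an adjusted p of 0.00778. It was 1.05 without untreated replicate 1 and 1.97 without untreated replicate 2, and DUSP14 did not pass without GNE987 replicate 1 or without GNE987 replicate 2 (adjusted p = 0.0558 and 0.0616). With all 4 libraries its adjusted p ranged from 0.00424 (upper-quartile scaling) to 0.0154 (robust estimation) in edgeR, and was 6.2e-06 with the DESeq2 Wald test.

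**Figure D2:**
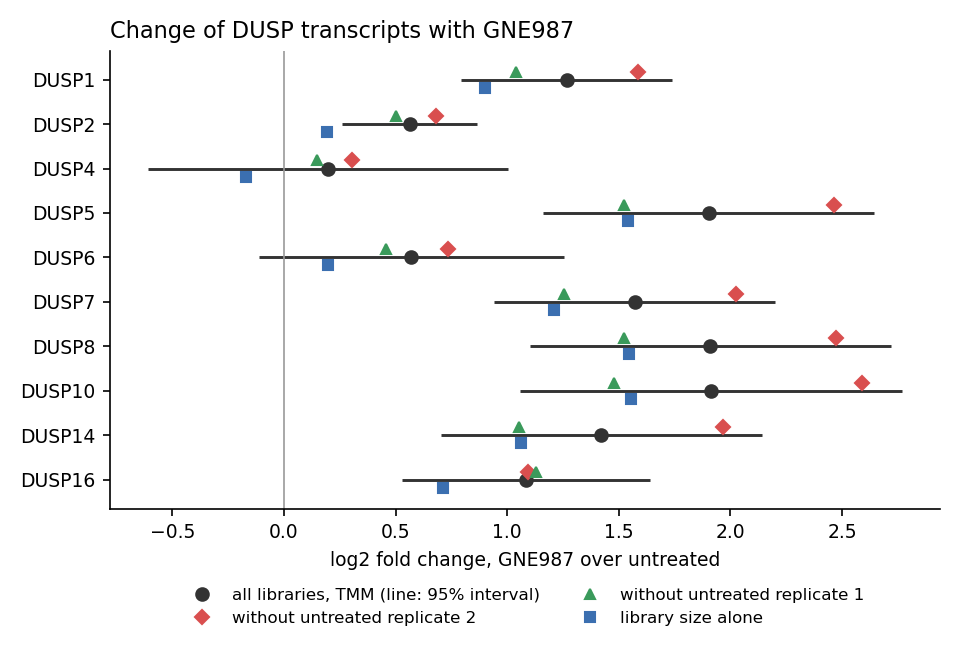
Log2 fold change of each phosphatase transcript, GNE987 over untreated; black points use all libraries with TMM scaling and lines are 95% intervals, red diamonds leave out untreated replicate 2, green triangles leave out untreated replicate 1 and blue squares use library size alone. The lines of DUSP4 and DUSP6 cross 0, the points of DUSP5, DUSP8 and DUSP10 lie at 1.90 to 1.91, and DUSP4 turns to -0.17 with library size alone.

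The place of untreated replicate 2 was expressed in CPM as a percentage of the distance between untreated replicate 1 (0%) and the treated mean (100%). It was 21.6% for DUSP1, 16.8% for DUSP2, 19.7% for DUSP5, 21.9% for DUSP7, 19.7% for DUSP8, 22.5% for DUSP10 and 29.5% for DUSP14, and -5.73% for DUSP16. For DUSP4 and DUSP6, which did not pass, it was 40.1% and 27.7%. So 7 of the 8 members that rose were shifted toward the treated level in this library, and DUSP16 was not. The same shift was present in 93.3% of all genes called higher and in 85.5% of all tested genes, with a median position of 18.5% and 19.9%. Whether the fold changes of the members differ from each other was not tested.

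Levels of different genes were compared per length, in the deposited FPKM. In the untreated cells DUSP2 led with 28.6 ± 1.2 FPKM (SD, n = 2), followed by DUSP14 with 22.5 ± 8.84, DUSP7 with 17.3 ± 5.62 and DUSP1 with 10.5 ± 2.32. Across the libraries the levels of DUSP2 overlapped with those of DUSP14, and those of DUSP14 with those of DUSP7, while within each untreated library DUSP2 was above DUSP14 and DUSP14 above DUSP7. DUSP5 and DUSP10 followed at 3.70 ± 1.49 and 3.48 ± 1.66 FPKM and also overlapped, with DUSP5 the higher in each library. DUSP8 and DUSP6 overlapped at 1.03 ± 0.419 and 0.985 ± 0.0892, and their order differed between the libraries. DUSP16 was at 0.669 ± 0.0429 and DUSP4 last at 0.285 ± 0.00898 FPKM. With GNE987 the order began with DUSP14 at 60.6 ± 2.37 FPKM, DUSP7 at 51.7 ± 1.97 and DUSP2 at 42.3 ± 3.14, and each neighbouring pair lay apart except DUSP6 and DUSP16, at 1.47 ± 0.335 and 1.42 ± 0.00635 FPKM. DUSP2 thus went from the first to the third place, and DUSP14 and DUSP7 moved up by 1 place each, with untreated libraries that overlapped.

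The summed level of the 10 members was 207.6 and 220.5 FPKM with GNE987, 73.8 FPKM in untreated replicate 1 and 104 FPKM in untreated replicate 2. The mean was 2.40 times the untreated mean, 2.90 times the level of untreated replicate 1 and 2.05 times that of untreated replicate 2. DUSP2 made up 37.6% of the sum in untreated replicate 1 and 28.2% in untreated replicate 2, and 19.3% and 20.2% with GNE987. DUSP7 made up 18.1% and 20.4% without and 24.2% and 24.1% with GNE987. The phosphatases that prefer JNK and p38 made up 5.05% and 6.33% without and 8.75% and 8.48% with GNE987, while the nuclear inducible group went from 53.6% and 44.7% to 38.05% and 38.44%. The treated libraries were alike in make-up, and the share of DUSP14 in untreated replicate 2, at 27.6%, was near the 28.4% and 28.2% of the treated libraries.

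**Figure D3:**
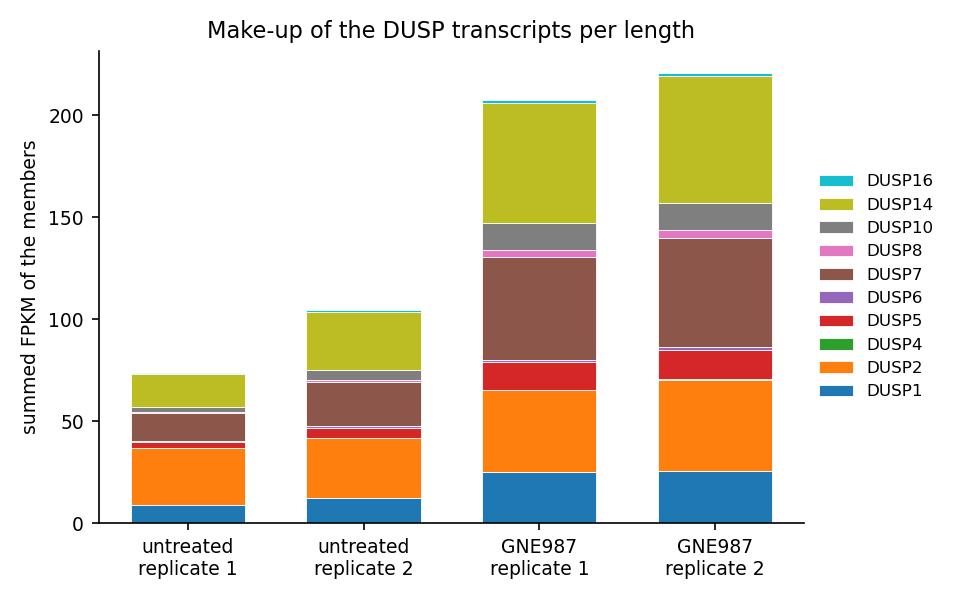
Summed FPKM of the 10 phosphatase transcripts in each library, with 1 segment per gene; bars start at 0 and carry no error because each is 1 library. The bars of the treated libraries reach 207.6 and 220.5 FPKM against 73.8 and 104 FPKM in the untreated ones, and DUSP2, DUSP7 and DUSP14 are the tallest segments in all 4.

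The authors' deposited table also lists a comparison of treated with untreated cells. In the authors' deposited table the log2 fold change was 1.92 for DUSP10 and DUSP8, 1.91 for DUSP5 and 1.58 for DUSP7, and the adjusted p was 0.234 for DUSP6 and 0.793 for DUSP4. For the other 8 members the authors' deposited table has adjusted p-values from 1.55e-09 to 0.00803.

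Genes around these phosphatases were taken from 11 lists by their role in MAP kinase signalling, with 152 entries of which 140 were tested. Of these 62 rose and 48 fell. Over all tested genes 34.4% were higher and 37.2% lower, and the counts of each list stand beside these shares. Of 15 other tested dual-specificity phosphatases 4 rose and 9 fell, with a median log2 fold change of -1.25. DUSP9, a cytoplasmic ERK phosphatase of the same subgroup as DUSP6 and DUSP7, was at 2.43 and 1.81 CPM with GNE987 and at 23.8 and 20.2 CPM without, a log2 fold change of -3.37 ± 0.23. DUSP11, which removes phosphates from RNA, was at -3.66 ± 0.23, and STYX, a catalytically dead relative, and the cofilin phosphatase SSH2 were at 1.82 ± 0.19 and 1.56 ± 0.17. Of 8 tested phosphatases of other families that act on MAP kinases 2 rose and 3 fell (median 0.05, and -0.32 with library size alone). PTPN7, the tyrosine phosphatase of ERK and p38 in blood cells, had 53.0 ± 2.19 CPM with GNE987 and 382 ± 48.8 CPM without (SD, n = 2), and its log2 fold change was -2.85 ± 0.15. PPP2R1B, a scaffold subunit of PP2A, was at -3.98 ± 0.18, its catalytic subunit PPP2CA at 0.73 ± 0.13, and PPM1D, a p53-induced phosphatase of p38, at 1.90 ± 0.32. Adjusted p was at most 0.0124 for each of the 40 pathway genes picked by the rule (edgeR, Benjamini-Hochberg). The rule took the smallest p among called genes of each list and direction, so this limit follows from the choice.

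Of 11 tested MAP kinases, the substrates, 4 rose and 3 fell, beside 34.4% and 37.2% of all tested genes, with a median of 0.07, which was -0.30 with library size alone. NLK, an atypical MAP kinase, was at 0.57 ± 0.13, and MAPK6, also atypical, and the p38 isoform MAPK12 were at -1.84 ± 0.15 and -1.19 ± 0.12. Without GNE987 replicate 1 or without GNE987 replicate 2 only 1 MAP kinase was called higher, and 3 lower. Of 7 MAP kinase kinases 2 rose, MAP2K1 (1.45 ± 0.19) for ERK and MAP2K3 (1.27 ± 0.19) for p38, and 4 fell, among them MAP2K6 (-4.13 ± 0.51), also for p38, and MAP2K5 (-1.86 ± 0.22), a kinase of the big MAP kinase MAPK7 (median of the list -0.51). Among 18 kinases of the tier above 9 rose and 8 fell, with MAP3K3 at 1.22 ± 0.14, TAOK1 at 1.09 ± 0.13, MAP3K10 at -3.47 ± 0.16 and MAP3K4 at -2.29 ± 0.18; the median of 0.27 was -0.10 with library size alone.

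Upstream, 11 of 21 tested genes of the RAS and RAF arm fell and 2 rose (median -0.97). ARAF, a RAF kinase, was at -2.76 ± 0.14 and the RAS activator RASGRP2 at -2.38 ± 0.13, and the adaptors SHC1 and GRB2 were at 1.27 ± 0.16 and 1.17 ± 0.17. Of 11 scaffold genes 8 rose and 2 fell (median 1.03), with TAB3 at 1.56 ± 0.18, LAMTOR3 at 1.03 ± 0.13, TAB1 at -3.82 ± 0.20 and LAMTOR1 at -1.58 ± 0.13. The Sprouty and SPRED genes, which also dampen RAS signalling, passed in 2 of 7 cases (median -0.11). SPRY4 was at 86.9 and 78.3 CPM in the treated and 11.8 and 23.0 CPM in the untreated libraries (2.25 ± 0.32), and SPRY1 was at 0.46 and 0.362 CPM against 3.05 and 1.88 CPM (-2.56 ± 0.49).

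Downstream, 5 of 10 kinases fell and 2 rose (median -0.50), with MKNK2 at 2.15 ± 0.38, MAPKAPK2 at 1.31 ± 0.19, MAPKAPK3 at -2.78 ± 0.14 and RPS6KA4 at -2.23 ± 0.12. Of 13 transcription factors that MAP kinases phosphorylate 9 rose and 2 fell (median 0.72), with ETV5 at 1.58 ± 0.17, MEF2A at 1.16 ± 0.13, ATF1 at -1.98 ± 0.19 and ETS1 at -1.02 ± 0.13. All 19 tested early genes that MAP kinases induce rose, with a median of 2.43, which was 1.78 without untreated replicate 1 and 3.61 without untreated replicate 2. IER5 and IER2, with the smallest p of the list, were at 1.86 ± 0.29 and 1.96 ± 0.33. JUN had the largest adjusted p of the 19 (0.0499, edgeR), with 2158 and 2185 CPM with GNE987 against 34.3 and 471 CPM without. With robust estimation 13 of the 19 passed, where 32.4% of all tested genes were higher, and with the replicate block 16 passed (28.5%). Only 4 of the 19 passed without GNE987 replicate 1, and 4 without GNE987 replicate 2, and 17 passed with library size alone. Their summed level was 5493 and 5662 CPM with GNE987 and 366 and 1434 CPM without. Fewer of all tested genes were also called higher without GNE987 replicate 1, without GNE987 replicate 2 or with library size alone (shares above). Without GNE987 replicate 1 or without GNE987 replicate 2, 1 of the other phosphatases of MAP kinases was higher in place of 2 and 2 MAP kinase kinases were lower in place of 4. In the RAS and RAF arm 7 genes were lower without GNE987 replicate 1, and 4 in place of 2 were higher without untreated replicate 1, without untreated replicate 2, with RLE factors, with upper-quartile scaling, with the filter of 10 CPM (14 genes tested) and with the DESeq2 Wald test. Without GNE987 replicate 2, 3 downstream kinases and none of the Sprouty genes were lower, and 2 Sprouty or SPRED genes were higher without untreated replicate 2, with RLE factors and with upper-quartile scaling. With the filter of 10 CPM 14 kinases of the tier above the MAP kinase kinases were tested and 4 of them were lower. With library size alone 2 MAP kinases were higher, and 3 Sprouty or SPRED genes and 4 transcription factors were lower.

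**Figure D4:**
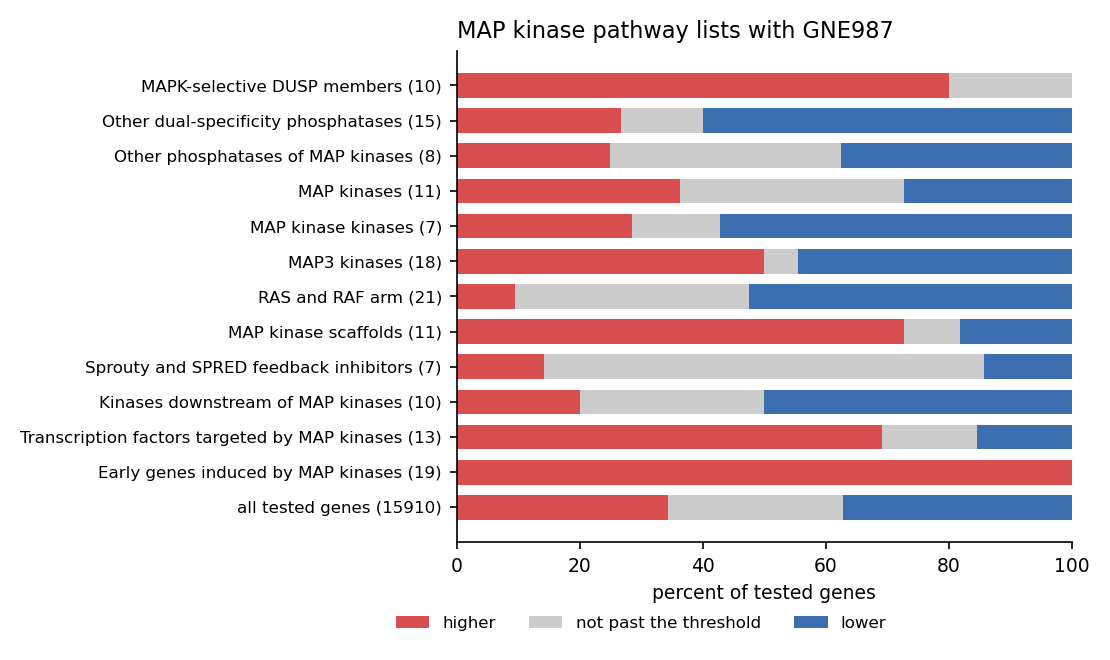
Share of the tested genes of each MAP kinase pathway list that were higher, lower or not past the threshold with GNE987, with the number tested in brackets and all 15910 tested genes in the last bar. The phosphatases described here (8 of 10 higher) and the early genes (19 of 19 higher) hold no lower gene. The other dual-specificity phosphatases have 9 of 15 lower, among them the ERK phosphatase DUSP9.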

How the data were processed

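Per the submitters' processing notes, reads were aligned with HISAT2 2.2.0 to hg38. How reads were counted, on which annotation and with which strand setting is not given in the sources used here. Deposited with the series, 1 table holds raw counts per gene, judged from whole-number values, and FPKM values that the authors scaled by 1 size factor per library, judged from their fixed ratio to the deposited scaled columns. The authors' log2 fold changes and p-values are quoted only where named. The TruSeq kit does not mark strand.

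Counts were filtered with filterByExpr (minimum count 10, minimum total 15), scaled with TMM and tested in edgeR 4.0.16 (quasi-likelihood F test, R 4.3.3, 2 residual degrees of freedom), with Benjamini-Hochberg adjustment over 15910 genes. The steps were also run on simulated counts in which few genes changed. Most genes were called in the real data, so that run does not cover their setting. The SE is the log2 fold change divided by the square root of F. A count of 3 equals 0.135 to 0.217 CPM and covers counting error only.

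The members, lists and tests were chosen with earlier results of these data known. Named pathway genes were up to 2 per list and direction with the smallest p and a mean of at least 1 CPM. An item under this rule is not reported here. Alternatives were 3 other scalings, 2 other filters, DESeq2 1.42.0, robust estimation, a block on the replicate number, and leaving out single libraries while keeping the gene filter.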

Additional observations from a re-analysis of the deposited data

How the results depend on the processing

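Scaling by RLE factors, upper quartiles or library size, both other filters, the DESeq2 Wald test, robust estimation and the block left the counts of changed genes and of members within 1.5 times of the values given. DUSP4, DUSP6 and DUSP16 were not tested with a filter of 10 CPM in 2 libraries. DUSP4 turned to a log2 fold change of -0.17 with library size alone. Leaving out each library in turn gave 6070 to 12921 changed genes, 2062 to 6534 higher ones, 5 to 9 members changed, all of them higher (5 to 9), and 34 to 67 pathway genes higher; the lowest values came without a treated library. A sample left alone in its group takes the spread of the other pair. With the replicate number as a block 8 members were called, and 9801 genes in all. Same-numbered libraries did not deviate together (r = -0.0039 across 15910 genes), and the labels give no shared culture for a number. DUSP4 had 30 to 45 counts and DUSP6 88 to 110, the thinnest depth together with DUSP16, which passed with 76 to 126; the part of depth in the missed calls was not tested.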

Other observations

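For each member with a mean of at least 10 CPM, the tested genes of at least that level with the closest pattern were found by the root mean square difference of log2 CPM, centred over the 4 libraries. DUSP7 lay closest to B2M (0.0044) and KCTD10 (0.0085), DUSP1 to GLIPR2 (0.0071) and DGKQ (0.0092), and DUSP5 to JPT1 (0.011) and BRD2 (0.013). DUSP2 lay closest to PPIB (0.011) and SLC9A5 (0.014), DUSP10 to NSMCE3 (0.016) and SUGP1 (0.024), DUSP8 to CCDC85C (0.027) and BRD2 (0.039), and DUSP14 to DDIT4 (0.028) and MFSD12 (0.050). With 4 libraries such closeness is common: 396 of 8791 genes lay within 0.1 of DUSP1 and 511 within 0.1 of DUSP2, against 92 for DUSP8.

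DUSP5P1, a processed pseudogene of DUSP5, had 3 and 3 counts with GNE987 and 20 and 16 without, the opposite direction to DUSP5 (log2 fold change -1.99, adjusted p = 0.022 by edgeR).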
